A study of Mus musculus with 3 samples.

Results

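The 9 genes described here, Atf4, Atf5, Ddit3, Trib3, Chac1, Asns, Sesn2, Ddit4 and Ppp1r15a, belong to the integrated stress response, and they were found by symbol among the 21750 features of the count matrix. Ddit3 is listed under 2 gene IDs, the second with 0 UMIs, and its rows were summed. The matrix holds 1 single-cell RNA library of hippocampus from 5 pooled Aldh1l1CreERT2;Rosa26-LSL-tdTomato mice. In these mice the Aldh1l1 promoter, used to reach astrocytes, drives a tamoxifen-inducible Cre that switches on tdTomato. Their hippocampi had been injected with AAV-TIGRi-Hopx, a Cre-dependent vector that knocks down Hopx and also encodes EGFP, and cells positive for tdTomato and EGFP were enriched by sorting 3 weeks after tamoxifen. The study asked how astrocyte-lineage cells change as Hopx is repressed. The groups compared below are cells of this 1 library, so cell types and reporter-positive cells are set against other cells that received the same treatment, and which mouse a cell came from cannot be told. The anti-Flag and IgG chromatin samples of primary astrocytes were not analysed here, and no library without the vector was used.

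In the integrated stress response, kinases that sense amino acid shortage, misfolded protein in the endoplasmic reticulum, double-stranded RNA or haem and mitochondrial defects phosphorylate the translation factor eIF2alpha. General protein synthesis then slows, while mRNAs with upstream open reading frames, among them those of Atf4, Atf5, Ddit3 and Ppp1r15a, continue to be translated. The ATF4 protein switches on genes for amino acid supply, tRNA charging, glutathione turnover and mTORC1 restraint, and Ppp1r15a closes the loop by bringing a phosphatase back to eIF2alpha. Since ATF4 and ATF5 are controlled largely at translation, their mRNA levels do not measure their protein.

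Of 6672 barcodes, 6485 passed the filters, with 610 to 42440 UMIs each and a median of 5564. A gate on marker genes outside the 9 assigned 5841 cells to cell types. The 7 types with at least 50 cells were 604 ependymal-like, 1495 endothelial-like, 2579 microglia-like, 240 border macrophage-like, 86 oligodendrocyte-like, 139 astrocyte-like and 591 choroid plexus-like cells. Although the sort was for tdTomato and EGFP, an EGFP UMI was found in 69 cells and a tdTomato UMI in 237, together 300 cells, of which 46 with EGFP were ependymal-like and 2 astrocyte-like. A cell without a reporter UMI is therefore not shown to lack the reporter. Levels are given as UMIs of the gene per 1000000 UMIs of the group (CPM), with exact 95% Poisson intervals. All intervals cover counting error only, cells are not replicates, and no test across samples was possible. A gene was called higher or lower when the ratio was at least 2 either way, the Poisson intervals did not overlap and at least 1 side had 20 CPM. Shares of features called are over the features that reached 20 CPM on at least 1 side.

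Promoter windows are shown for Trib3, Chac1 and Asns because these 3 genes are the ones of the 9 whose windows held the motif searched for. RefSeq windows of 250 bases before to 30 after the start (GRCm38.p6, while the counts are on GRCm39) were matched for all 9 genes, Atf5 having 2. They were searched on both strands for TGATGNAA, the core of the element that ATF4 binds together with C/EBP factors. Of the 10 windows, 3 held it, those of Trib3, Chac1 and Asns, and 1251 of all 32851 RefSeq windows did (3.81%). Capitals mark the match, the sequence runs 5′ to 3′ on the gene's strand, and positions count from +1 at the annotated start.
Trib3, chr2:152344031-152344310, minus strand: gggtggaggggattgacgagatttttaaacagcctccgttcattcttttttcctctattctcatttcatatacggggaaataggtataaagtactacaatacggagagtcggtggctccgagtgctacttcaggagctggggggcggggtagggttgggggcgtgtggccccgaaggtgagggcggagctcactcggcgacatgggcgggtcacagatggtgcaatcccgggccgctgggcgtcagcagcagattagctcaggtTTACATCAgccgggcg
Chac1, chr2:119350992-119351271, plus strand: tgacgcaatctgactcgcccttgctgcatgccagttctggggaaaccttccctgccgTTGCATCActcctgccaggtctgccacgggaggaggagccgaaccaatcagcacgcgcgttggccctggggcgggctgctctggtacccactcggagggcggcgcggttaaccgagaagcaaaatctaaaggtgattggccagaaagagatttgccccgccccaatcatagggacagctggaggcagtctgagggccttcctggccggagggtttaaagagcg
Asns, chr6:7693180-7693459, minus strand: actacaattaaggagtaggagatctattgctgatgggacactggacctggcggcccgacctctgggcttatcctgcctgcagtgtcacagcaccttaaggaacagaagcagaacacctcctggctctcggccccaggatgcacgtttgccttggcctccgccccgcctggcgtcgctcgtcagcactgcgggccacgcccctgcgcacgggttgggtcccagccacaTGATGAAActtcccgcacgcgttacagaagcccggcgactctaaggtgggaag
The match began at base 15 after the start in Trib3 and at base -193 in Chac1, both on the opposite strand, and at base -23 on the gene's strand in Asns. A match is a description of letters, not evidence of binding, and a window without one says nothing about regulation from elsewhere.

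The genes fell into different patterns by cell type. Atf4, the central transcription factor, had 160 CPM in microglia-like, 143 in endothelial-like and 105 in border macrophage-like cells. It had 85.6 CPM in oligodendrocyte-like, 52.5 in ependymal-like, 39.1 in astrocyte-like and 23.8 in choroid plexus-like cells. Intervals of neighbours in this order overlapped for border macrophage-like with oligodendrocyte-like, ependymal-like with astrocyte-like, and astrocyte-like with choroid plexus-like cells. Atf5, a related factor under the same translational control, followed another order: 73.3 CPM (65.0 to 82.4) in ependymal-like cells, against 3.66 to 12.7 CPM in the other 6 types. Ddit3, which encodes CHOP, a factor linked to cell death under lasting stress, had 77.5 CPM in oligodendrocyte-like and 50.4 CPM in ependymal-like cells, whose intervals overlapped. Its lowest levels were 16.8 CPM in astrocyte-like and 12.7 CPM in choroid plexus-like cells.

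**Figure D1:**
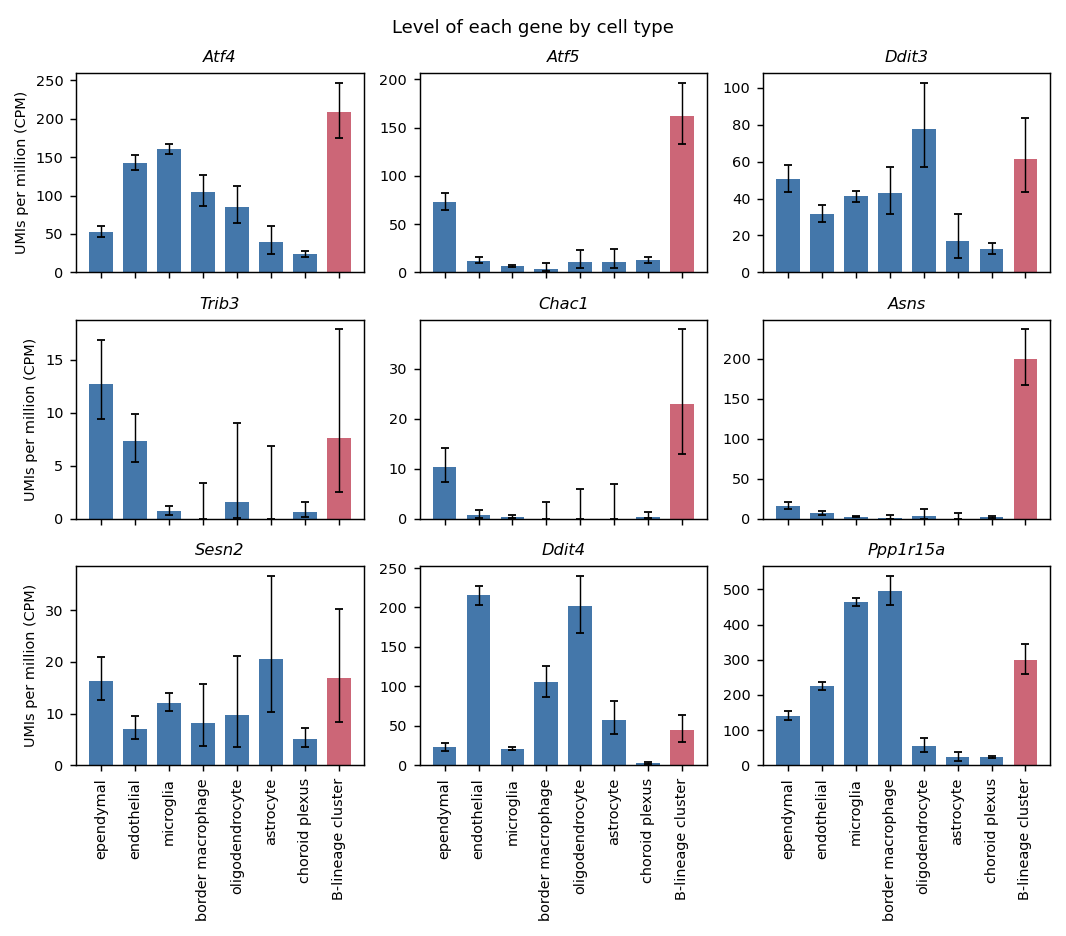
Level of each gene (bars, CPM, linear axis from 0, a scale per panel) in 7 gated cell types in blue and in the B-lineage cluster in red, with exact 95% Poisson intervals. Atf5, Trib3, Chac1 and Asns are highest in ependymal-like cells among the 7 types, although the Trib3 interval overlaps that of endothelial-like cells, and Asns reaches 199 CPM in the B-lineage cluster.

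The targets Trib3, Chac1 and Asns were close to the detection limit in most types. Trib3, a pseudokinase that dampens ATF4 and AKT signalling, had 49 UMIs or 12.7 CPM (9.42 to 16.8) in ependymal-like cells and 44 UMIs or 7.34 CPM (5.33 to 9.86) in endothelial-like cells. Without cells holding a reporter UMI it had 5.78 CPM in ependymal-like and 7.25 CPM in endothelial-like cells. The 2579 microglia-like cells held 12 Trib3 UMIs, or 0.693 CPM. Chac1, which encodes an enzyme that breaks down glutathione, had 40 UMIs or 10.4 CPM (7.43 to 14.2) in ependymal-like cells, against 4 UMIs or 0.667 CPM in endothelial-like and 6 UMIs or 0.346 CPM in microglia-like cells. Asns, the asparagine synthetase, had 16.4 CPM (12.6 to 20.9) in ependymal-like and 7.01 CPM in endothelial-like cells, against 0.915 to 3.23 CPM in the other types where it was seen. In astrocyte-like cells, the cells the Cre line is meant for, Trib3, Chac1 and Asns had 0 UMIs in 139 cells, where 3 UMIs would make 5.59 CPM. Border macrophage-like cells had 0 UMIs of Trib3 and Chac1 in 240 cells, where 3 UMIs would make 2.74 CPM.

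Shares of cells with a UMI were compared after thinning each cell to 2000 UMIs, which evens out depth. Free RNA in droplets can also place UMIs in cells that do not express a gene, and thinning does not remove it, for the 9 genes or for EGFP. Its level was not measured, and the share in microglia-like cells is given beside the others. A Trib3 UMI was then present in 1.83% of ependymal-like cells (exact interval 0.882 to 3.34%) and in 1.31% of endothelial-like cells (0.764 to 2.09%), against 0.120% of microglia-like cells (0.0249 to 0.352%). Before thinning, the shares were 4.47%, 2.81% and 0.465% at median depths of 5767, 3519 and 6390 UMIs. For Chac1 the thinned share was 1.10% (0.404 to 2.38%) in ependymal-like cells, against 0.154% (0.0187 to 0.555%) in endothelial-like cells and 0 of 2490 microglia-like cells (0 to 0.148%).

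Of the mTORC1 inhibitors, Sesn2, a sestrin that also senses leucine, had 5.15 CPM in choroid plexus-like to 20.5 CPM (10.2 to 36.7) in astrocyte-like cells. Every neighbouring pair in its order had overlapping intervals, but types further apart in it did not all overlap. The intervals of astrocyte-like, ependymal-like (12.6 to 20.9 CPM) and microglia-like cells (10.5 to 13.9) lay above those of endothelial-like (5.05 to 9.47) and choroid plexus-like cells (3.56 to 7.19). Ddit4, which hypoxia and glucocorticoids also induce, had 215 CPM in endothelial-like and 202 CPM in oligodendrocyte-like cells, against 2.88 CPM in choroid plexus-like cells. Ppp1r15a, the phosphatase subunit GADD34, had 496 CPM in border macrophage-like and 464 CPM in microglia-like cells, whose intervals overlapped, then 225 CPM in endothelial-like and 141 CPM in ependymal-like cells. It had 54.9 CPM in oligodendrocyte-like, 22.9 CPM in choroid plexus-like and 22.4 CPM in astrocyte-like cells.

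When each type was set against all other gated cells, the 9 genes were called higher in 6 of 63 cases and lower in 13. In ependymal-like cells Atf5 was called higher, 7.09-fold (6.03 to 8.32), where 29.6% of features with 20 CPM were, and Atf4, Ddit4 and Ppp1r15a were called lower, where 18.6% were. Trib3 (6.73-fold, 4.53 to 9.95), Chac1 (21.3-fold, 11.7 to 40.7) and Asns (4.10-fold, 2.98 to 5.57) met the other criteria there but not the minimum of 20 CPM. In microglia-like cells Ppp1r15a (3.27-fold) and Atf4 (2.10-fold) were called higher against a background of 16.5%, and Atf5 and Ddit4 lower against 33.7%. In endothelial-like cells Ddit4 was called higher, 8.69-fold (7.94 to 9.51), against a background of 19.7%, and none was lower, where the background was 24%. In oligodendrocyte-like cells Ddit4 (3.78-fold) and Ddit3 (2.21-fold) were called higher, where the background was 19.9%, and Ppp1r15a lower, where it was 27.5%. Atf4, Ddit3 and Ppp1r15a were called lower in astrocyte-like cells (background 21.9%), and Atf4, Ddit3, Ddit4 and Ppp1r15a in choroid plexus-like cells (49.7%). None was called higher in either, where the backgrounds were 25% and 15.4%. None was called in border macrophage-like cells in either direction, with backgrounds of 10.1% and 22.1%. These shares are over features with 20 CPM on at least 1 side, while the 9 include genes under that level. Counts and shares are therefore not on the same base, and nothing is concluded about the 9 genes from them.

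Ppp1r15a and Ddit4 were set beside lists of genes that cell dissociation, hypoxia or glucocorticoids induce. The summed level of the 22 immediate early and dissociation genes was 30756 CPM in border macrophage-like, 18364 CPM in microglia-like and 31896 CPM in endothelial-like cells, against 1854 CPM in choroid plexus-like and 1783 CPM in astrocyte-like cells. The sum was 12751 CPM in ependymal-like and 10473 CPM in oligodendrocyte-like cells. Ppp1r15a was also lowest in choroid plexus-like and astrocyte-like cells, followed by oligodendrocyte-like and then ependymal-like cells, as was this sum. Ppp1r15a was higher in border macrophage-like and microglia-like than in endothelial-like cells, the reverse of the sum. In endothelial-like cells, where Ddit4 was highest, 6 of 14 hypoxia genes were called higher and 6 lower, and 5 of 11 glucocorticoid genes were called higher and none lower. Among them were Slc2a1, the glucose transporter of brain endothelium, at 27.5-fold, and Zbtb16 at 18.7-fold. The part of these lists in the levels of Ppp1r15a and Ddit4 was not tested.

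Inside the ependymal-like cells, the genes differed with the reporter. In the 46 with an EGFP UMI, 8 of the 9 genes were called higher than in the 558 without one. Of the features with 20 CPM on at least 1 side, 2.33% were. None of the 9 was called lower, where 1.56% of those features were. Trib3, Chac1, Sesn2 and Asns reached 20 CPM only in EGFP-positive cells, so they could be called only higher. Trib3 and Chac1 had the largest ratios of the 9. Chac1 had 67.7 CPM in EGFP-positive cells, against 4.31 CPM in EGFP-negative cells (15.7-fold, 7.96 to 32.0). Trib3 had 78.5 CPM in EGFP-positive cells, against 5.75 CPM in EGFP-negative cells (13.7-fold, 7.46 to 25.5). Sesn2 had 56.9 CPM against 12.1 CPM in EGFP-negative cells (4.71-fold, 2.65 to 8.13). Asns had 43.3 CPM in EGFP-positive cells and 13.5 CPM in EGFP-negative cells (3.21-fold, 1.70 to 5.76).

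The transcription factors differed by 3 to 5 times between the same cells. Atf5 had 244 CPM in EGFP-positive cells, against 55.2 CPM in EGFP-negative cells (4.41-fold, 3.40 to 5.70). Ddit3 had 157 CPM against 39.1 CPM in EGFP-negative cells (4.02-fold, 2.90 to 5.50), and Atf4 had 141 CPM against 43.1 CPM (3.26-fold, 2.33 to 4.50). Ppp1r15a was near the threshold, with 260 CPM in EGFP-positive cells and 128 CPM in EGFP-negative cells (2.03-fold, 1.61 to 2.53), and its ratio was under 2 without the EGFP-positive cell that held most Trib3 and Chac1 UMIs. Ddit4 was the exception, with 24.4 CPM in EGFP-positive cells and 22.7 CPM in EGFP-negative cells (1.07-fold, 0.473 to 2.14). With cells thinned to 2000 UMIs, an Atf5 UMI was present in 13 of 45 EGFP-positive cells, or 28.9% (16.4 to 44.3%), and in 39 of 501 EGFP-negative cells, or 7.78% (5.59 to 10.5%). Trib3 was present in 5 of 45 EGFP-positive cells, or 11.1% (3.71 to 24.1%), and in 5 of 501 EGFP-negative cells, or 0.998% (0.325 to 2.31%). Chac1 was present in 8.89% of EGFP-positive cells (2.47 to 21.2%) and 0.399% of EGFP-negative cells (0.0484 to 1.43%). For the other 6 genes the intervals of the thinned shares overlapped, among them Atf4, at 17.8% of EGFP-positive cells (8.00 to 32.1%) and 7.39% of EGFP-negative cells (5.25 to 10.0%), and Asns, at 4.44% (0.543 to 15.1%) and 2.40% (1.24 to 4.15%).

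**Figure D2:**
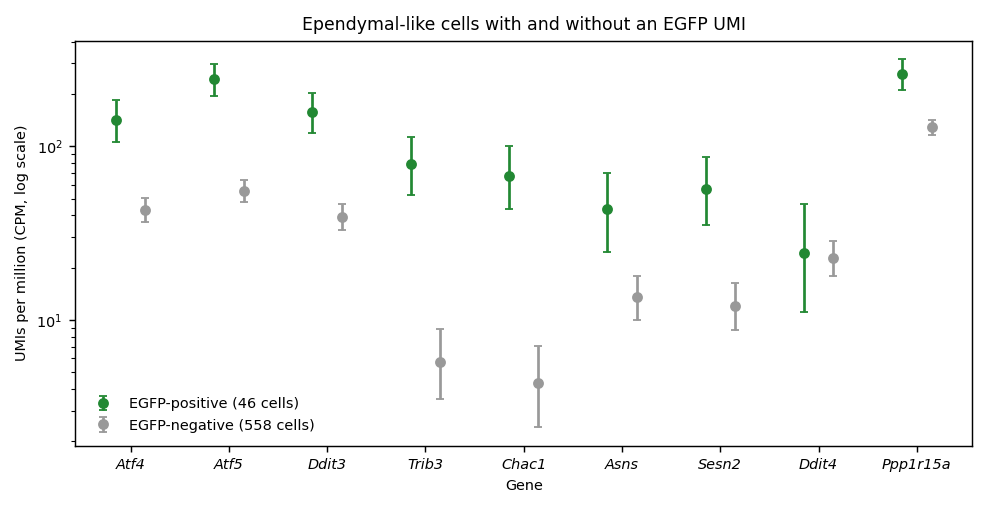
Level of each gene (CPM, log axis) in ependymal-like cells with an EGFP UMI (green) and without one (grey), as points with exact 95% Poisson intervals. Intervals are apart for every gene but Ddit4, and the gap is widest for Trib3 and Chac1.

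The pathway lists were counted in the same comparison. Of 22 amino acid and other ATF4 targets with at least 10 UMIs, 7 were called higher in EGFP-positive ependymal-like cells and none lower. They included Gdf15, a secreted stress hormone, at 143 CPM in EGFP-positive cells against 15.5 CPM in EGFP-negative cells (9.24-fold, 6.21 to 13.8), and Mthfd2, a mitochondrial folate enzyme, at 97.5 CPM against 10.9 CPM (8.92-fold, 5.50 to 14.5). The transporter Slc7a1 (4.59-fold) and the stress-induced regulator Nupr1 (3.70-fold) were also among them. Of 13 genes for tRNA synthetases and tRNA export, 5 were called higher, and their median log2 ratio was 0.90, against 0.06 over all features. In turn, 1 of 18 genes of the unfolded protein response was called higher, with a median of 0.19. Of the 15 eIF2alpha kinase, eIF2 and phosphatase genes 1 was called higher, as was 1 of 22 immediate early, 1 of 11 glucocorticoid and 1 of 14 hypoxia genes, the last being Vegfa (4.52-fold). Of 12 p53 genes 4 were called higher, among them Gadd45a (4.76-fold, 3.25 to 6.89), a DNA damage gene that stress factors also induce. None of these 8 lists had a gene called lower.

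The vector's target, Hopx, had 67.7 CPM (43.8 to 99.9) in EGFP-positive and 151 CPM (138 to 164) in EGFP-negative ependymal-like cells, a ratio of 0.449 (0.288 to 0.671). EGFP-positive cells had a median of 6476 UMIs and 1.44% mitochondrial UMIs, against 5662.5 UMIs and 1.70% in EGFP-negative cells. None of the 46 was called a doublet, against 10 of the 558. Summed ependymal markers were at 7548 CPM in EGFP-positive and 8069 CPM in EGFP-negative cells. Microglial markers were at 284 CPM against 323 CPM, and endothelial markers at 21.7 CPM against 34.2 CPM. Monocyte and neutrophil markers were at 54.1 CPM in EGFP-positive cells against 15.8 CPM in EGFP-negative cells, with 1 of 8 called higher. Mural markers were at 246 CPM against 412 CPM, choroid plexus markers at 252 CPM against 402 CPM and oligodendrocyte markers at 173 CPM against 256 CPM. A single marker each of the mural, ependymal, astrocyte, oligodendrocyte and neuron lists was called lower in EGFP-positive cells. The part of these in the result was not tested. The EGFP UMI and the lower Hopx level mark the same cells, and their parts in these levels cannot be told apart.

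Cells with tdTomato but no EGFP were compared separately. In 29 such ependymal-like cells, set against 529 with neither reporter, Atf4 was called higher (84.5 CPM against 40.7 CPM, 2.07-fold, 1.15 to 3.49) and none of the other 8 genes was, where 0.835% of features were called higher and 0.606% lower. The Atf4 ratio was near the threshold of 2. Trib3 had 1 UMI in these cells, or 5.28 CPM, against 5.78 CPM in the cells with neither reporter. Both levels are under 20 CPM, so Trib3 could not be called. The difference between the EGFP and the tdTomato comparisons was not tested.

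Cells with EGFP or tdTomato were also compared with cells of the same type holding neither. In ependymal-like cells, 75 against 529, 7 of the 9 genes were called higher, where 1.34% of features were, and none lower, where 0.634% were. An EGFP UMI was in 46 of these 75 cells, but in 2 of 38 reporter-positive endothelial-like and 7 of 86 choroid plexus-like cells. It was in 2 of 28 astrocyte-like and 1 of 25 microglia-like ones, and the rest held tdTomato alone. Cell types thus differ in which reporter was seen, and the parts of type and reporter cannot be told apart here. In the other types a reporter UMI, mostly tdTomato, went with few of the genes. In 38 reporter-positive endothelial-like cells, against 1457 without, none was called, with Atf4 at 1.02-fold (0.678 to 1.47) and Ddit4 at 0.905-fold (0.640 to 1.24), where 1.19% of features were called higher and 0.974% lower. In choroid plexus-like cells, 86 against 505, none was called either, and the backgrounds were 0.327% and 0.615%. Asns there had 10.4 CPM in reporter-positive cells against 1.39 CPM in reporter-negative cells (7.47-fold, 2.56 to 22.3), under the minimum level. In 28 astrocyte-like cells with a reporter, against 111 without, none was called (backgrounds 0.739% and 0.751%), and Atf4 had 66.3 CPM against 27.0 CPM (2.46-fold, 0.947 to 6.45). In 25 reporter-positive microglia-like cells, against 2554 without, Asns and Ddit4 were called higher where 3.03% of features were and none lower where 1.37% were, but the 6 Asns UMIs lay in 2 cells and the 9 Ddit4 UMIs in 4.

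**Figure D3:**
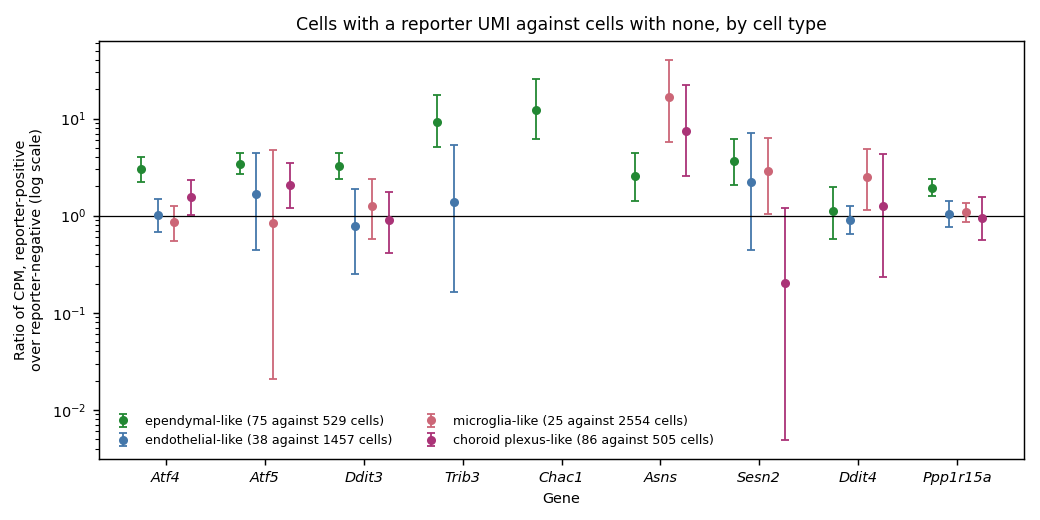
Ratio of CPM in reporter-positive over reporter-negative cells (log axis, line at 1) for each gene in 4 cell types, as points with exact 95% binomial intervals, drawn where both groups had a UMI. In ependymal-like cells 8 of 9 intervals lie above 1, while in endothelial-like cells all intervals drawn include 1. Most reporter-positive cells held EGFP in ependymal-like cells and tdTomato in the other types drawn.

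The levels by cell type were also computed without any cell that held a reporter UMI. The 529 ependymal-like cells with neither reporter had 54.1 CPM of Atf5, 13.4 CPM of Asns, 5.78 CPM of Trib3 and 3.95 CPM of Chac1. Reporter-negative microglia-like cells had 6.82, 2.04, 0.700 and 0.350 CPM of the same 4 genes. Reporter-negative endothelial-like cells had 12.1, 7.25, 7.25 and 0.690 CPM. Atf5, Asns and Chac1 thus stayed highest in ependymal-like cells among these 3 types. For Asns, however, the intervals of ependymal-like (9.72 to 18.0 CPM) and endothelial-like cells (5.22 to 9.80 CPM) overlapped. Trib3 did not stay highest: its level in reporter-negative ependymal-like cells was below that in reporter-negative endothelial-like cells, with overlapping intervals.

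Within the ependymal-like cells, Trib3 and Chac1 were concentrated in few cells. The 49 Trib3 UMIs lay in 27 cells, up to 7 in a cell, and 65.3% of them in the top 10 cells. The 40 Chac1 UMIs lay in 22 cells, with 70% in the top 10, and 11 cells held both genes. In endothelial-like cells the 44 Trib3 UMIs lay in 42 cells, 40 of them with a single UMI, and no cell held both. Only 4 endothelial-like cells had a Chac1 UMI, so the lack of cells with both decides nothing. Of the 46 EGFP-positive ependymal-like cells 14 had a Trib3 or Chac1 UMI, or 30.4% (17.7 to 45.8%), and of the 558 EGFP-negative ones 24 did, or 4.30% (2.77 to 6.33%).

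The 38 ependymal-like cells with a Trib3 or Chac1 UMI carried more of all 7 other genes than the 566 with neither. This division of the cells was chosen after the values were seen, and Trib3 and Chac1, which define it, are left out. All 7 were called higher, where 7.35% of features were called higher and 3.96% lower. Asns, Sesn2 and Ddit4 were under 20 CPM in the cells with neither, so they could be called only higher. Atf5 had 451 CPM in cells with a Trib3 or Chac1 UMI, against 42.7 CPM in cells with neither (10.6-fold, 8.30 to 13.5). Sesn2 had 111 CPM against 8.71 CPM (12.8-fold, 7.54 to 21.6), Atf4 had 271 CPM against 34.8 CPM (7.78-fold, 5.78 to 10.4) and Asns 83.4 CPM against 10.9 CPM (7.61-fold, 4.38 to 13). Ddit3 was 6.52-fold, Ppp1r15a 3.78-fold and Ddit4 2.96-fold (1.63 to 5.08) higher. These cells had a median of 7011 UMIs, against 5680.5 in cells with neither, and none was called a doublet. Deeper cells are more likely to show a UMI of any gene, while the CPM values are scaled to depth.

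The 7 genes differed likewise among EGFP-negative ependymal-like cells alone. In the 24 with a Trib3 or Chac1 UMI, against 534 with neither, all 7 other genes were called higher, where 6.18% of features were called higher and 2.6% lower, with Atf5 at 10.1-fold (7.38 to 13.7) and Ddit4 at 3.80-fold (1.92 to 6.95). Asns and Sesn2 were again under 20 CPM in the cells with neither and could be called only higher. In endothelial-like cells none of the 7 was called when the 46 with a Trib3 or Chac1 UMI were set against 1449 with neither, where 0.706% of features were called higher and 0.817% lower. Atf4 there had 157 CPM in cells with a Trib3 or Chac1 UMI, against 142 CPM in cells with neither (1.11-fold, 0.771 to 1.55). Asns and Sesn2 were under 20 CPM in both groups of endothelial-like cells and could not be called. In microglia-like cells, 17 with such a UMI against 2562 with neither, none of the 7 was called either, where 5.3% of features were called higher and 2.2% lower. Atf5 there had 25.9 CPM against 6.64 CPM (3.91-fold, 1.05 to 10.3) and Asns 19.5 CPM against 2.21 CPM (8.79-fold, 1.74 to 27.7), on 4 and 3 UMIs in the 17 cells. Asns was thus under 20 CPM in both groups of microglia-like cells and could not be called.

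**Figure D4:**
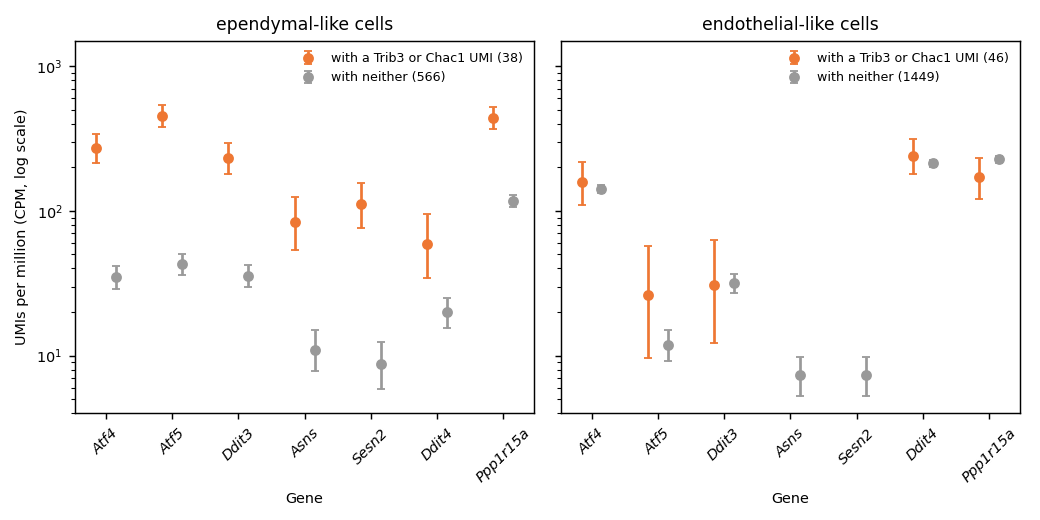
Level of the other 7 genes (CPM, log axis) in cells with a Trib3 or Chac1 UMI (orange) and with neither (grey), in ependymal-like cells on the left and endothelial-like cells on the right, as points with exact 95% Poisson intervals. All 7 are apart in ependymal-like cells and none in endothelial-like cells, where Asns and Sesn2 had 0 UMIs in the orange group and are not drawn.

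Other ATF4 targets were also higher in these 38 cells. Of the 13 genes for tRNA synthetases and tRNA export, 10 were called higher and none lower, with a median log2 ratio of 1.88, against 0.11 over all features. Of 22 amino acid and other ATF4 targets 13 were called higher and none lower, among them Slc7a1, at 146 CPM in cells with a Trib3 or Chac1 UMI against 4.49 CPM in cells with neither, and Mthfd2, at 174 CPM against 6.74 CPM. Among EGFP-negative cells alone 11 of the 22 were called higher and 1, Psph, lower. Fgf21, a secreted metabolic hormone, had 24.3 CPM in the 38 cells and 0 UMIs in the others. Other lists changed in part as well: 4 of 12 p53 genes were called higher and none lower, led by Gadd45a (13.1-fold, 9.22 to 18.7), 4 of 14 hypoxia genes higher and 1 lower, 3 of 15 eIF2alpha kinase, eIF2 and phosphatase genes higher and none lower, and 1 of 11 glucocorticoid genes higher and none lower. Of 18 unfolded protein response genes 1 was called higher and none lower, with a median of 0.07. Of 22 immediate early and dissociation genes 2 were called higher and 2 lower, with a median of 0.27. The 2 lower ones were the heat shock genes Hspa1b and Dnajb1, Hspa1b at 115 CPM in the 38 cells against 313 CPM in the others (0.366-fold, 0.25 to 0.516). The ATF4 targets were also counted in other types divided the same way. In microglia-like cells 5 of 20 were called higher and none lower, where 5.3% of features were called higher and 2.2% lower. Their median log2 ratio there was 0.95, against 0.29 over all features. In endothelial-like cells none of 17 was called, with a median of 0.01 against 0.06. In the B-lineage cluster described below none of 19 was called, with a median of 0.59 against 0.02.

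Co-detection was computed after thinning to 2000 UMIs, for cells with and without a UMI of Trib3, Chac1 or Asns against each of the other 8 genes. This made 24 ordered pairs, pairs among Trib3, Chac1 and Asns being counted in both orders. In ependymal-like cells the share was higher with the first gene, with intervals apart, in 11 pairs, and lower in none. At 1000 UMIs it was higher in 6 pairs, Chac1 with Asns being counted in both orders. In endothelial-like cells and in the B-lineage cluster no pair had intervals apart at either depth. In microglia-like cells none did at 2000 UMIs and 1 did at 1000, on 2 cells with Trib3. At 2000 UMIs, endothelial-like, microglia-like and B-lineage cells with Trib3 numbered 17, 3 and 1. Those with Chac1 numbered 2, 0 and 2, and those with Asns 20, 4 and 26. Intervals from 0 to 4 cells are wide, so pairs with such groups decide nothing. Of 14 cells with an Asns UMI, 8 had a Ddit3 UMI, or 57.1% (28.9 to 82.3%), against 43 of 532 cells without Asns, or 8.08% (5.91 to 10.7%). Of 10 cells with a Trib3 UMI, 5 had an Atf4 UMI, or 50% (18.7 to 81.3%), against 40 of 536 cells without Trib3, or 7.46% (5.38 to 10.0%). No ependymal-like cell held both Trib3 and Chac1 after thinning, with 10 and 6 cells holding each. Asns with Ppp1r15a had overlapping intervals, at 28.6% (8.39 to 58.1%) with Asns and 17.3% (14.2 to 20.8%) without. In endothelial-like cells 6 of 17 cells with Trib3 had Atf4, or 35.3% (14.2 to 61.7%), against 23.2% (21.0 to 25.7%) of 1282 without it. Counting Atf5, Ddit3, Trib3, Chac1 and Asns, a set chosen after the values were seen, at least 3 were present in 13 of 46 EGFP-positive ependymal-like cells (28.3%, 16 to 43.5%) and in 20 of 558 EGFP-negative ones (3.58%, 2.20 to 5.48%), unthinned. In 1495 endothelial-like cells 2 had at least 3 of these genes, and in 2579 microglia-like cells 7 did. In the B-lineage cluster described below 15 of 91 did (16.5%, 9.53 to 25.7%), an interval that overlaps that of the EGFP-positive ependymal-like cells.

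Clustering without the 9 genes put 426 ependymal-like cells in a larger cluster, led by Col6a5 and Nrxn3, and 158 in a smaller one, led by Zfp804b, Npy and Rspo3. Atf5 had 97.8 CPM in the larger cluster, against 23.2 CPM in the smaller (4.21-fold, 2.86 to 6.41), and was the only one of the 9 called, where 4.49% of features were called higher and 2.16% lower. Trib3 had 17.6 CPM in the larger cluster against 3.21 CPM in the smaller (5.49-fold, 2.0 to 21.0), below the minimum level. Of the EGFP-positive ependymal-like cells 42 lay in the larger cluster and 3 in the smaller. Within the larger cluster alone, the EGFP comparison still called 7 of the 9 genes higher, the log2 ratio being 3.35 for Trib3 and 3.42 for Chac1, and Ppp1r15a, at 0.99, was no longer called.

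Clusters of mostly microglia-like cells differed in Ppp1r15a and Ddit4. Ppp1r15a had 796 CPM in a cluster of 521 cells led by Slc2a5, Csmd3 and Klk8, and 630 CPM in a cluster of 432 led by Il12b, Arl5c and Il1b. It had 279 CPM in a cluster of 389 cells led by Spp1, Lpl and Gpnmb, genes of activated microglia. Ddit4 had 71.3 CPM in the first of these, 14.3 CPM in the second and 4.87 CPM in the third. Atf4 had smaller differences, at 185, 175 and 130 CPM. These are levels of clusters of 1 library and were not tested.

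A small cluster outside the 7 types held the highest Asns. Its 91 cells were led by Slpi, Jchain, Ly6d and Cd79a, genes of antibody-secreting and B-lineage cells. Next came Ly6c2, which the gate counted as a monocyte or neutrophil marker. Of the 91 cells 25 passed the gate as B cell-like. In the whole library 26 cells did, 16 of them with only the minimum of 3 markers, so the name of the cluster is tentative. Asns had 199 CPM in this cluster, against 4.06 CPM in all other cells (49.1-fold, 38.7 to 62.1), with a UMI in 51 of the 91 cells. Atf5 had 163 CPM against 16.5 CPM in all other cells (9.85-fold, 7.95 to 12.1), and Chac1 had 23.0 CPM against 1.44 CPM (16-fold, 8.44 to 28.6). These 3 of the 9 were called higher, where 8.92% of features were, and none was called lower, where 22.8% were. Trib3, with 5 UMIs in 3 cells, was at 7.67 CPM against 3.19 CPM (2.41-fold, 0.768 to 5.76). Within the cluster, the 15 cells with a Trib3 or Chac1 UMI were set against the 76 with neither, and 3 of the other 7 genes were called higher, where 1.33% of features were called higher and 1.57% lower. These were Asns (389 CPM against 156 CPM, 2.49-fold, 1.70 to 3.60), Atf5 (306 CPM against 130 CPM, 2.36-fold, 1.54 to 3.56) and Atf4 (356 CPM against 175 CPM, 2.03-fold, 1.38 to 2.95). Sesn2 was under 20 CPM in both groups and could not be called.

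The same pathway lists were counted in the B-lineage cluster. Of 18 unfolded protein response genes 15 were called higher and none lower, led by Xbp1, the secretory cell factor, at 17.3-fold, and so were 7 of 13 synthetase and export genes, with none lower. Of 25 ATF4 targets 9 were called higher and 3 lower, with Pycr1 (126-fold, 69.7 to 236), Aldh1l2 (33.6-fold) and Shmt2 (15.8-fold), enzymes of proline and one-carbon metabolism, at the top. Eif2ak3, the eIF2alpha kinase PERK, was 14.2-fold higher (11.7 to 17).

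Among 9334 non-member genes, those whose log2(CPM + 1) tracked each member most closely over the 7 cell types were Sh3glb1 for Atf4 (Pearson r = 0.987), Ube2b for Atf5 (0.978), Ypel3 for Ddit3 (0.989), Lmna for both Trib3 (0.969) and Asns (0.978), Lrrc71 for Chac1 (0.996), Slc1a3 for Sesn2 (0.981), Exoc6b for Ddit4 (0.987) and Ddx21 for Ppp1r15a (0.981). Each r rests on 7 points that share 1 library.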

How the data were processed

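Per the labels' protocols, the authors made the UMI counts from 10x 3′ single-cell libraries. Per the submitters' processing notes, the tool was Cell Ranger 8.0.1 and the build GRCm39. No source used here names the annotation version. The deposited counts are raw: whole UMI counts per gene and barcode. Barcodes with under 500 genes or over 15% mitochondrial UMIs were removed (187 of 6672). Each cell took the cell type with the largest share of its markers seen, given at least 3 markers and no other type above a 0.5 share of that. Related types were exempt from counting against each other, an exemption and scoring rule set after marker counts were seen. Of 133 marker symbols 132 matched. Scrublet (rate 0.05) marked 261 cells, 220 of them ungated, and these were kept. Clusters came from Leiden in scanpy 1.11.5 (resolution 1, seed 0) without the 9 genes, the 8 pathway lists and the reporters. UMIs were summed per group. Ratios have exact binomial, levels exact Poisson and shares Clopper-Pearson 95% intervals. List medians add 0.5 UMI. Other tools were Python 3.11.15, numpy 2.4.6, pandas 2.3.3, scipy 1.17.1 and matplotlib 3.10.9. The ratio rule was run on simulated Poisson counts, the distribution its intervals assume. The simulation leaves out the concentration of UMIs in few cells, so it does not show how the rule behaves on these data. The members, lists and splits were chosen with earlier results of these data known. Named pathway genes are up to 6 per direction and comparison, by ratio among those called, and not all are printed.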

Additional observations from a re-analysis of the deposited data

How the results depend on the processing

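Over the 7 cell types, 6 calls higher and 13 lower became 5 to 8 and 11 to 14 under a stricter cell filter, doublet removal, Leiden clusters in place of the gate, a gate of 4 markers, equal weight per cell, reporter-negative cells only, median-of-ratios scaling, totals without the most abundant genes, a mean over types as the other side, and, chosen after seeing the data, no shared-marker exemption. With no CPM minimum they were 10 higher and 20 lower. No called direction reversed under any of these. In EGFP-positive ependymal-like cells 7 or 8 of 9 genes stayed called under the 8 alternatives run, of which 7 were chosen after seeing the data, and the gene lost was Ppp1r15a, with log2 ratios of 0.73 to 0.99 where it was lost. With cells gated on B cell markers in place of the B-lineage cluster, 2 of 3 genes stayed called, Chac1 being lost. Thinning to 1000 UMIs gave 15.4% of Asns-positive ependymal-like cells with an Atf4 UMI and 15.4% with an Atf5 UMI, against 42.9% for each at 2000, on 13 cells. Asns-positive cells with a Ddit3 UMI were 38.5% there, and of 3 Trib3-positive cells 1 had Atf4. No paired analysis was possible because the library is alone in its group. Depth limits Trib3, Chac1 and Asns most: in small cell types, levels under those of 3 UMIs were not detectable.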
